A study of Homo sapiens with 24 samples.

Results

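The response of the lymphoma line U-2932 to 8 h of TAK-981 was read from 4 RNA sequencing libraries, of 16 RNA libraries and 24 samples in all. The libraries were chosen by their labels, as 2 replicates of U-2932 treated for 8 h and 2 of U-2932 at 0 h, and every expressed gene was a member of the comparison, which was 17327 of 58676 gene IDs after the filter on low counts. U-2932 is a line from a diffuse large B-cell lymphoma (DLBCL), of the activated B-cell type, and is known to hold more than 1 subclone. TAK-981 is a small molecule inhibitor of the SUMO-activating enzyme.

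The study treated 4 lymphoma lines with TAK-981 and set each against its own 0 h libraries. All are labelled B cell, DLBCL and genotype WT, and the treatment label of the 0 h libraries also reads TAK-981, so that the time in the title was what set the groups apart. The lines were U-2932, SU-DHL-10, OCI-LY3 and OCI-LY19, where the series text has SU-DHL4 in place of SU-DHL-10. No source used here gives the dose, no vehicle library at 8 h was used, and 8 h in culture is therefore part of every difference. Nothing in the labels ties a replicate to a culture of its own, and the p-values therefore cover only the spread among these libraries, which may be technical in origin. Each value belongs to 1 culture line, and in bulk RNA fewer cells of a type and less RNA per cell cannot be told apart.

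SUMO is a small protein that is joined to lysines of other proteins by a cascade that opens with an activating enzyme (SAE1 with UBA2) and ends with a set of ligases, and is taken off by proteases of the SENP, DESI and USPL1 families. Many of its targets are transcription factors, corepressors, PML body proteins and chromosome proteins, and its attachment is best known for repressing transcription and for guarding mitosis and DNA repair. In lymphoid cells it is also known as a brake on interferon and NF-kB signalling.

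The 8 h libraries held 20460870 and 21597926 gene counts and the 0 h libraries 17223675 and 18544122, within a range of 16770677 to 24694466 over the 16 RNA libraries. Replicates correlated across genes with r = 0.991 at 8 h and 0.984 at 0 h (log2 scale). All 10 B-cell markers were detected, with a summed level of 2995 and 3031 CPM (counts scaled to library size) at 8 h and 4488 and 4243 CPM at 0 h. The 10 markers of activated B-cell type lymphoma summed to 1851 and 1860 CPM at 8 h and 2915 and 3047 CPM at 0 h. Of 18 T and NK cell markers 4 were at 0, and the list summed to 15.8 and 17.1 CPM at 8 h and 44.4 and 36.9 CPM at 0 h. Monocyte markers summed to at most 3.804 CPM, with 5 of 12 at 0, and epithelial and stromal markers to at most 12.7 CPM, with 4 of 14 at 0. At 0 h the libraries of both OCI lines were alike (r = 0.978 across genes), more so than any other pair of lines (0.817 to 0.878), and both enter the mean of the other lines used below.

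The response ran through the whole transcriptome, and how much of it rose depended on the scale. Scaled by TMM, which sets the trimmed average gene to no change, 8823 of 17327 genes (50.9%) were called in edgeR's quasi-likelihood test at a Benjamini-Hochberg adjusted p under 0.05, with 4495 higher (25.9%) and 4328 lower (25%). Scaled by the 92 spike-in RNAs, which sets the added RNA to no change, 9778 genes (56.4%) were called, 9049 higher (52.2%) and 729 lower (4.21%), though without replicate 1 at 8 h the lower genes numbered 425. Of the calls, 50.9% were higher under TMM and 92.5% under spike-in scaling. The median log2 fold change of all tested genes was 0 under TMM and 0.70 under spike-in scaling, a 1.62-fold shift. All 4495 genes that rose under TMM also rose under spike-in scaling. Both scales use the same counts and differ mainly by a shift of all genes, so this overlap is no separate evidence. Of the 4328 that fell under TMM, 729 also fell under spike-in scaling, 2903 were not called and 696 were called higher. Below, a log2 fold change is on the TMM scale unless the spike-in scale is named, with its standard error (SE), and levels are CPM on the TMM scale for each library. Counts of called genes in the lists below are to be set against the shares over all genes given here.

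**Figure D1:**
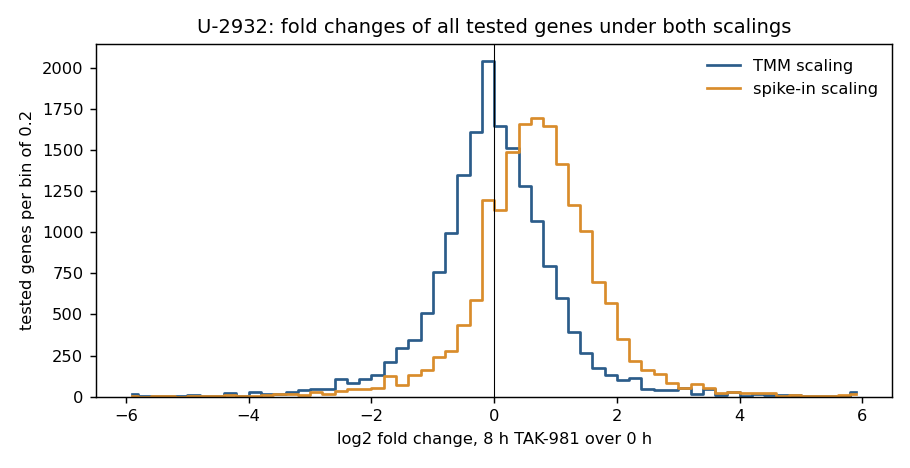
Number of tested genes (vertical axis) by log2 fold change of 8 h TAK-981 over 0 h in U-2932 (horizontal axis, values beyond the axis counted in the end bins), with 1 line for each scaling. The TMM line centres on 0 and the spike-in line on 0.70.

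The shift between the scales comes from the spike-in RNAs themselves. They took 0.427% and 0.382% of counts at 8 h and 0.620% and 0.614% at 0 h, so that 247 ± 19.3 gene counts stood against each spike-in count at 8 h and 161.1 ± 1.13 at 0 h (SD, n = 2 each). In each U-2932 library 60 to 66 spike-in RNAs were detected. Of the 35 with at least 100 counts, 34 had a lower share at 8 h, with a median log2 ratio of -0.64. The scale uses the total spike-in count, to which ERCC-00074, ERCC-00130, ERCC-00002 and ERCC-00096 gave the most (72076, 71497, 66675 and 66469 counts). Their log2 ratios were -0.45, -0.40, -0.73 and -0.79. How the spike-in RNAs were dosed, per cell or per amount of RNA, is stated in none of the sources used here, so the spike-in scale cannot be read as RNA per cell. On the TMM scale 1432 called genes rose and 1427 fell by at least 2-fold, and 334 rose and 454 fell by at least 4-fold.

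The change moved with gene length. Among 9547 protein-coding genes with at least 5 CPM on average, the shortest 10% (median genomic length 3.85 kb) had a median log2 fold change of -0.58, with 73% lower and 6.18% higher. The longest 10% (median 218 kb) had a median of 0.47, with 12.8% lower and 61.2% higher. The same medians were 0.14 and 1.20 with spike-in scaling. Length and change had a Spearman correlation across genes of 0.49 in U-2932, -0.10 in OCI-LY19, -0.03 in OCI-LY3 and 0.17 in SU-DHL-10, and genes are not independent replicates. Between replicates of U-2932 the same correlation was -0.19 at 8 h and 0.24 at 0 h (replicate 2 minus replicate 1). With a length trend removed from every library, 111 of 116 named genes kept their call and direction, and the change is given beside each of the others. Why length and change moved together was not tested.

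**Figure D2:**
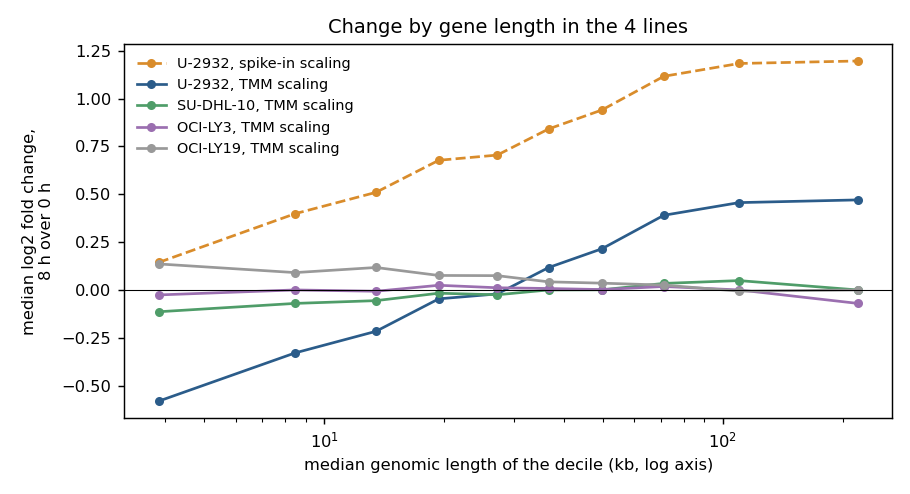
Median log2 fold change (vertical axis) of 10 groups of genes ordered by genomic length (horizontal axis, kb, log axis), in U-2932 under both scalings and in the 3 other lines under TMM. In U-2932 the TMM median ran between -0.58 in the shortest and 0.47 in the longest group.

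By chromosome the median log2 fold change lay between -0.24 on chromosome 19, whose genes had a median length of 17.8 kb, and 0.51 on chromosome 13, with 55.4 kb. The order was not strict, since chromosome 18, with a median length of 63.5 kb, stood at 0.34. The lists below were therefore also described with a length trend taken out of every library, which was chosen after the trend was seen. With it 8249 genes were called, 3958 higher and 4291 lower, of which 6898 were also called without it. The median of NF-kB target genes was then -1.09, of chemokines and cytokines -1.16, of costimulatory molecules -1.38, of immediate early genes -0.66, of ribosomal proteins -0.50, of complex I -0.52 and of complexes III to V -0.57. The heat shock list then stood at 0.59, chromatin regulators at 0.52, DNA damage and repair at 0.41, KRAB corepressors at 0.44, nuclear pore at 0.21 and zinc finger genes at 0.43. Of 50 list medians only that of the aminoacyl-tRNA synthetases changed sign, and it lay near 0 before (0.02 against -0.11).

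**Figure D3:**
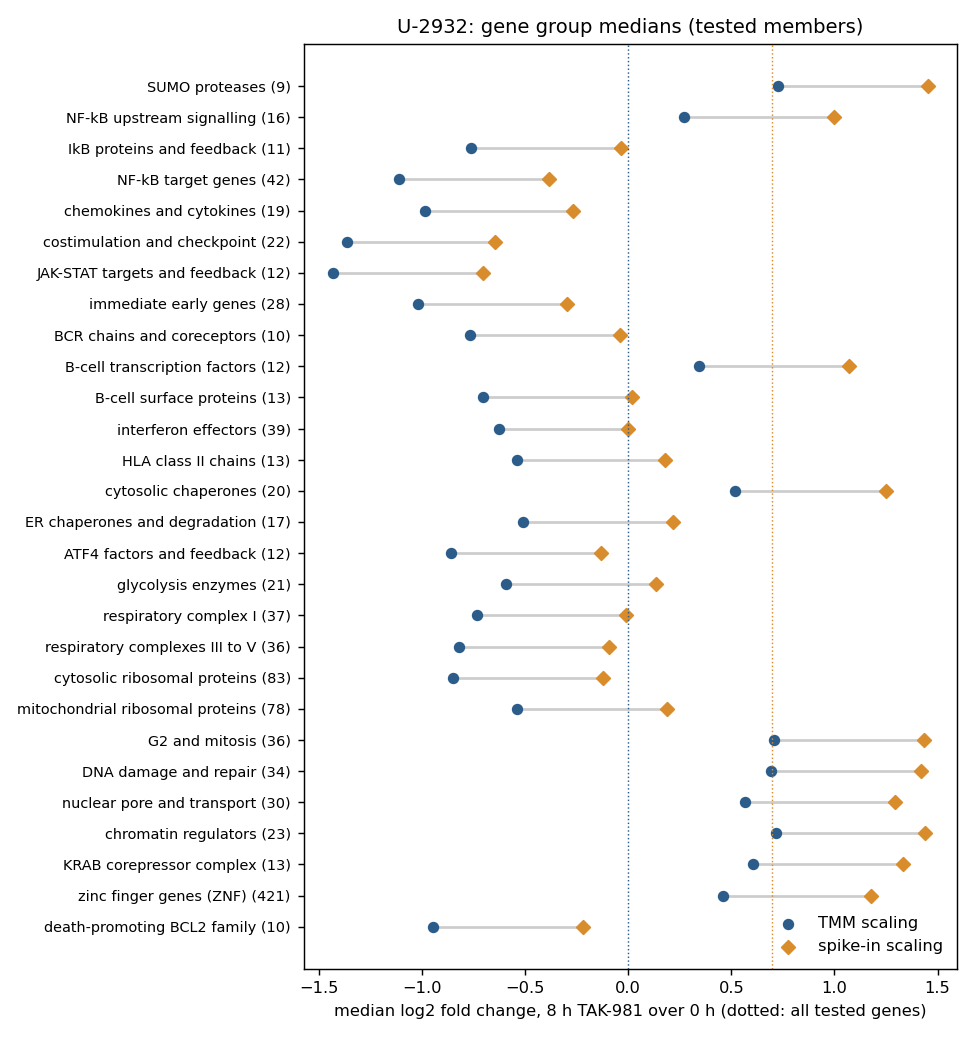
Median log2 fold change, 8 h TAK-981 over 0 h (horizontal axis), of the tested members of 28 gene groups, with the number tested in brackets, under TMM (circles) and spike-in scaling (diamonds). Dotted lines mark the median of all tested genes, 0 and 0.70, and groups such as costimulation (-1.36 under TMM) lie left of them while G2 and mitosis (0.71) lies right.

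In the SUMO pathway itself the median change was higher for the 9 proteases than for the 3 genes of the activating and conjugating enzymes (-0.06). That difference was not tested. Of 29 tested genes of the pathway 16 rose, 8 fell and 5 were not called, with a median of 0.28. Their median length was 42.9 kb, and with the length trend removed the median change was 0.13. Of the 9 proteases 7 rose and 1 fell, with a median of 0.73, and all 9 rose on the spike-in scale (median 1.45). DESI2, a protease that removes SUMO, had 138 and 146 CPM at 8 h, against 57.4 and 57.5 CPM at 0 h. It rose by 1.31 ± 0.07 (spike-in 2.04). SENP6, which trims SUMO chains, had 86.6 and 85.3 CPM at 8 h and 42.8 and 47.8 CPM at 0 h and rose by 0.92 ± 0.07. SENP7, another chain-trimming protease, rose by 1.26 ± 0.15. In each of these the 8 h libraries lay above both 0 h libraries, which follows from naming genes that were called.

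Of 11 ligases 6 rose and 4 fell, with a median of 0.35 (spike-in 1.08, with 8 higher and 1 lower). RANBP2, a ligase of the nuclear pore, had 307 and 299 CPM at 8 h and 127 and 148 CPM at 0 h and rose by 1.14 ± 0.07, and PIAS1, a ligase that binds transcription factors, rose by 0.91 ± 0.09. UBA2, the catalytic part of the enzyme that TAK-981 inhibits, rose by 0.28 ± 0.06, a call that was lost with the length trend removed (0.11).

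NF-kB is a family of dimers that IkB proteins hold in the cytoplasm until IkB kinase marks them for destruction, and U-2932 belongs to the lymphoma type known for keeping it active. At 8 h the subunits moved apart, the IkB proteins were mostly lower and the target genes fell almost as a block. REL, the c-Rel subunit, had 50.8 and 51.7 CPM at 8 h and 6.66 and 8.84 CPM at 0 h, and rose by 2.72 ± 0.11. NFKB1, the p50 precursor, rose by 0.26 ± 0.07, but was called lower with the length trend removed (-0.18) and was not called without replicate 1 at 0 h (0.18). NFKB2, the p100 precursor of the alternative pathway, had 61.3 and 66.3 CPM at 8 h and 151 and 143 CPM at 0 h and fell by 1.21 on the log2 scale (SE 0.07; spike-in -0.48 ± 0.16, a call that was lost without replicate 1 at 8 h, -0.36). RELA and RELB, which like REL carry an activation domain, fell by 0.32 (SE 0.07) and 0.79 (SE 0.09). The call of RELA was lost with the length trend removed (-0.09). On the spike-in scale RELA was called higher (0.40 ± 0.16), a call that was lost without 1 library in 3 of 4 cases, and RELB was not called (-0.06 ± 0.16).

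Of 11 IkB and feedback inhibitor genes 3 rose and 8 fell, with a median of -0.76 (spike-in -0.04, with 3 higher and 3 lower). NFKBIA, which encodes IkB alpha and is itself an NF-kB target, had 32.2 and 33.4 CPM at 8 h and 88.6 and 94.8 CPM at 0 h. It fell by 1.48 on the log2 scale (SE 0.08, edgeR adjusted p = 1.09e-16), and by 0.76 on the spike-in scale. NFKBIE, which encodes IkB epsilon, fell by 1.46 (SE 0.09). The 16 genes upstream, receptors' adaptors and kinases, had 8 higher, 3 lower and a median of 0.27 (spike-in 14 higher and 0 lower), among them the IkB kinase subunits IKBKB (0.82 ± 0.09) and CHUK (0.71 ± 0.08).

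Of 42 tested NF-kB target genes (43 listed) 0 rose, 36 fell and 6 were not called, with a median of -1.11, against 25% lower over all genes. With spike-in scaling 1 rose and 18 fell, with a median of -0.38, against 0.70 over all genes. A further test set the change in U-2932 against the mean change of the other 3 lines, in which 7366 of 17327 genes (42.5%) were called, 3882 higher in U-2932 (22.4%) and 3484 lower (20.1%). With spike-in scaling that test called 7624 genes (44%), 6900 higher in U-2932 (39.8%) and 724 lower (4.18%). On the TMM scale 32 of the 42 targets were lower in U-2932 by the test and 0 were higher. The list medians were -1.11 in U-2932, 1.47 in OCI-LY19, 0.76 in OCI-LY3 and -0.17 in SU-DHL-10. Of the targets CD70, a TNF family ligand on activated B cells, had 219 and 218 CPM at 8 h and 702 and 676 CPM at 0 h. It fell by 1.66 on the log2 scale (SE 0.07) and by 0.93 on the spike-in scale.

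Promoters of 33 of the targets were found among the RefSeq promoter windows, and 13 of them (39.4%) held the NF-kB consensus, on either strand, in the 250 bases before the gene start. Over all 27305 promoters the share was 9.57%. Among promoters of tested genes it was 11.0% in genes that rose, 11.7% in genes that fell and 11.6% in genes not called, so the motif alone did not separate genes by direction. The windows of NFKBIA and of LTB (lymphotoxin beta, 2.34 and 3.74 CPM at 8 h and 10.3 and 7.98 CPM at 0 h, log2 fold change -1.58 ± 0.30) are shown because both are targets that fell and hold 1 match each. They are RefSeq sequences of GRCh38.p14, chr14:35404750-35404999 and chr6:31582426-31582675, both on the minus strand and read towards the gene, with the match in capitals, and a match is a description of the letters and not a bound site.
NFKBIA: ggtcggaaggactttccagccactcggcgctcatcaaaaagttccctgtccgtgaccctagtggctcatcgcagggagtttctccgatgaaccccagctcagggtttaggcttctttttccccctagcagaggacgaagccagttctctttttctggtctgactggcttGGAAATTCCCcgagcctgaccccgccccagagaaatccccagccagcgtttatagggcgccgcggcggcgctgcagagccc
LTB: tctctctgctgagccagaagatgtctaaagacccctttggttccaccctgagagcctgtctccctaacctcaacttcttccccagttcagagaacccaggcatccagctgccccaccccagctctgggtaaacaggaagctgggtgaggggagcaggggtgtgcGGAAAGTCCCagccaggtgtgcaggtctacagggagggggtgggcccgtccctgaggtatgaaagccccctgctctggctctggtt

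Secreted and surface signals of the B cell fell with the targets, and several genes stand in more than 1 of these lists. Of 19 chemokines and cytokines 0 rose and 13 fell, with a median of -0.99 (spike-in -0.27, with 1 higher and 9 lower). CCL22, which draws T cells through CCR4, had 2.88 and 2.48 CPM at 8 h and 25.4 and 23.4 CPM at 0 h and fell by 3.18 on the log2 scale (SE 0.14). CCL4, a chemokine of activated lymphocytes and macrophages, had 9.68 and 8.75 CPM at 8 h and 55.3 and 58.9 CPM at 0 h and fell by 2.63 (SE 0.12), and it has near-identical copies among which reads may be split. Of 22 costimulatory and checkpoint molecules 2 rose and 15 fell, with a median of -1.36 (spike-in -0.65, with 3 higher and 8 lower). PDCD1, the checkpoint receptor PD-1, had 6.67 and 7.22 CPM at 8 h and 54.5 and 49.7 CPM at 0 h and fell by 2.91 (SE 0.17). TNFRSF14, the receptor HVEM, fell by 1.75 (SE 0.11) and CD86, a ligand of CD28, by 1.02 (SE 0.08), though CD86 was not called on the spike-in scale (-0.30 ± 0.16). CD47, the signal that holds back phagocytes, was one of the 2 that rose, with 161 and 167 CPM at 8 h and 93.8 and 108 CPM at 0 h (0.70 ± 0.07).

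In cytokine signalling through JAK and STAT the targets were also lower, while receptors and kinases were mixed. Of 12 targets and feedback genes 0 rose and 8 fell, with a median of -1.43 (spike-in -0.71, with 1 higher and 5 lower). Of 11 receptors and kinases 3 rose and 4 fell (spike-in 6 higher and 2 lower). IL10RA, a chain of the IL-10 receptor, had 44.3 and 41.6 CPM at 8 h and 172 and 177 CPM at 0 h and fell by 2.02 (SE 0.09). IL2RG, the common chain of several cytokine receptors, fell by 2.24 (SE 0.20). Immediate early genes, the first genes to answer a signal at the membrane, had 1 higher and 19 lower of 28, with a median of -1.02 (spike-in -0.29). JUND, an AP-1 subunit, had 108 and 109 CPM at 8 h and 252 and 243 CPM at 0 h and fell by 1.20 (SE 0.07), EGR1, a zinc finger factor of that class, fell by 1.66 (SE 0.16), and DUSP2, a phosphatase that turns off MAP kinases, fell by 1.10 (SE 0.09). The immediate early median was -1.02 in U-2932, 0.39 in OCI-LY19, 0.91 in OCI-LY3 and -0.15 in SU-DHL-10, and 19 of the 28 were lower in U-2932 by the test of the difference.

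Most chains of the B-cell receptor were lower on the TMM scale, and its kinases were mixed. Of 10 receptor chains and coreceptors 1 rose and 8 fell, with a median of -0.77 (spike-in -0.04, with 2 higher and 3 lower). CD79B, a signalling chain of the receptor, had 68.7 and 70.9 CPM at 8 h and 242 and 231 CPM at 0 h and fell by 1.76 (SE 0.08; spike-in -1.04). Its partner CD79A had 596 and 597 CPM at 8 h and 1081 and 961 CPM at 0 h and fell by 0.77 (SE 0.06), but stood at -0.05 ± 0.15 on the spike-in scale, where it was not called. The heavy chain gene IGHM, which had the most counts of all genes at 0 h, had 5650.1 and 6024 CPM at 8 h and 15038 and 13445 CPM at 0 h and fell by 1.29 (SE 0.07; spike-in -0.56), and immunoglobulin genes share sequence, so reads may be split among them. The 15 kinases and adaptors had 4 higher, 6 lower and a median of -0.01 (spike-in 0.71, with 11 higher and 1 lower), and of them RASGRP3, an exchange factor that activates Ras behind the receptor, fell by 1.71 (SE 0.09).

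On the TMM scale most surface proteins of the B lineage were lower, while 7 of 12 transcription factors of the lineage were higher. Of the 12 factors 7 rose and 3 fell, with a median of 0.35 (spike-in 1.07), and of 13 surface proteins 2 rose and 10 fell, with a median of -0.70 (spike-in 0.02, with 2 higher and 4 lower). POU2F1, the octamer-binding factor Oct-1, had 82.6 and 70.2 CPM at 8 h and 20.03 and 23.4 CPM at 0 h and rose by 1.81 ± 0.11. PAX5, which holds cells in the B lineage, had 313 and 293 CPM at 8 h and 153 and 170.1 CPM at 0 h and rose by 0.91 ± 0.07. ETS1, a factor that restrains plasma cell formation in mice, had 471 and 466 CPM at 8 h and 253 and 263 CPM at 0 h and rose by 0.86 ± 0.06. Its change in the other lines was -1.70 in OCI-LY19, -1.78 in OCI-LY3 and -0.39 in SU-DHL-10, and the difference of U-2932 from their mean was 2.15 ± 0.08.

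Among surface proteins FCRL3, an Fc receptor-like protein, had 8.02 and 11.4 CPM at 8 h and 134 and 156 CPM at 0 h and fell by 3.90 on the log2 scale (SE 0.12; spike-in -3.17), and FCRL5, of the same family, fell by 1.19 (SE 0.08). MS4A1, which encodes CD20, fell by 0.57 (SE 0.06) and CD37, a tetraspanin, by 0.74 (SE 0.06), and neither was called on the spike-in scale (0.16 ± 0.15 and -0.01 ± 0.15). The germinal centre list was split, with 8 higher, 8 lower and 9 not called of 25 (spike-in 18 higher and 1 lower). Over all genes 25.9% rose and 25% fell (spike-in 52.2% and 4.21%). BCL6, the repressor that defines germinal centre cells, had 58.1 and 60.1 CPM at 8 h and 34.1 and 37.9 CPM at 0 h and rose by 0.71 ± 0.09, and MME, which encodes CD10, rose by 1.23 ± 0.10. BCL6 changed by -1.55 in OCI-LY19, -2.32 in OCI-LY3 and -0.10 in SU-DHL-10, with a difference of 2.04 ± 0.10 between U-2932 and their mean. PRDM1, the repressor that drives plasma cell formation and opposes BCL6, had 10.9 and 12.7 CPM at 8 h and 45.1 and 52.3 CPM at 0 h and fell by 2.04 (SE 0.15).

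More interferon effectors fell than rose on the TMM scale. Of 39 antiviral effector genes 7 rose, 19 fell and 13 were not called, with a median of -0.63 (spike-in 0.00, with 14 higher and 7 lower). Over all genes 25.9% rose and 25% fell (spike-in 52.2% and 4.21%). MX2, a GTPase that blocks viral nuclear entry, had 122 and 127 CPM at 8 h and 65.9 and 62.8 CPM at 0 h and rose by 0.95 ± 0.09, SAMD9, an antiviral factor, rose by 1.35 ± 0.13, and EIF2AK2, the kinase PKR, by 0.88 ± 0.08. IFI35 had 6.80 and 7.49 CPM at 8 h and 24.8 and 20.4 CPM at 0 h and fell by 1.66 (SE 0.16), and ISG15, a ubiquitin-like modifier, fell by 1.34 (SE 0.16). Of 41 promoters found for the interferon list 21 (51.2%) held the interferon-stimulated response element GAAANNGAAA or its reverse TTTCNNTTTC, against 3.07% of all promoters.

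Antigen presentation genes were lower on the TMM scale. Of 13 HLA class II chains and chaperones 0 rose and 10 fell, with a median of -0.54, and of 21 class I genes 3 rose and 14 fell, with a median of -0.39. On the spike-in scale class II had 1 higher and 1 lower (median 0.18) and class I had 9 higher and 2 lower (median 0.33). The whole class II list of 20 genes and the class I list hold short genes (median 10.5 kb and 6.63 kb). With the length trend removed their medians were -0.32 and -0.31. Of these genes, 11 of 20 and 13 of 21 lay below the median of the protein-coding genes in their length group. HLA-C had 158 and 160.3 CPM at 8 h and 401 and 359.6 CPM at 0 h and fell by 1.26 (SE 0.07; spike-in -0.53). HLA-DMA, which loads peptides on class II, fell by 0.98 (SE 0.10) and was not called on the spike-in scale (-0.26 ± 0.17). HLA genes share sequence and vary between people, so their levels depend on how reads were counted, which no source used here states.

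Most cytosolic chaperones rose, while on the TMM scale most chaperones of the endoplasmic reticulum (ER) and most factors of the ATF4 branch of the stress response fell. The list of 20 chaperones and cochaperones also holds the mitochondrial HSPD1 and HSPE1. Of the 20, 13 rose, 1 fell and 6 were not called, with a median of 0.52 (spike-in 1.25, with 18 higher and 0 lower). HSPH1, an exchange factor of the Hsp70 chaperones, had 396 and 453 CPM at 8 h and 121 and 133 CPM at 0 h and rose by 1.74 ± 0.08 (edgeR adjusted p = 1.69e-18). HSP90AA1, the inducible Hsp90, had 4091 and 4699 CPM at 8 h and 2183 and 2168 CPM at 0 h and rose by 1.01 ± 0.07. CHORDC1, a partner of Hsp90, rose by 1.09 ± 0.07, and DNAJB1, an inducible Hsp40, by 0.95 ± 0.07. HSPE1, the mitochondrial Hsp10, was the 1 that fell (-0.87 ± 0.11), and it was not called on the spike-in scale (-0.15 ± 0.17). The median of the chaperones was 0.52 in U-2932, 0.99 in OCI-LY19, -0.00 in OCI-LY3 and 0.32 in SU-DHL-10.

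Heat shock factor binds inverted repeats of a short unit, here searched as GAANNTTC, which reads the same on both strands. The pair was in 7 of 19 chaperone promoters (36.8%) and in 5.85% of all promoters. Its share was 4.36% in promoters of genes that rose and 4.46% in those of genes that fell. It was absent from the windows of HSPH1, HSP90AA1 and DNAJB1, which rose. The windows of CHORDC1 and of HSPA8, the constitutive Hsp70 (2244 and 2403 CPM at 8 h, 1719 and 1586 CPM at 0 h, 0.49 ± 0.07), are shown because both rose and hold more than 1 pair, in capitals, at 3 places in CHORDC1 and 2 in HSPA8. They are RefSeq sequences of GRCh38.p14, chr11:90223050-90223299 and chr11:123062137-123062386, both on the minus strand and read towards the gene.
CHORDC1: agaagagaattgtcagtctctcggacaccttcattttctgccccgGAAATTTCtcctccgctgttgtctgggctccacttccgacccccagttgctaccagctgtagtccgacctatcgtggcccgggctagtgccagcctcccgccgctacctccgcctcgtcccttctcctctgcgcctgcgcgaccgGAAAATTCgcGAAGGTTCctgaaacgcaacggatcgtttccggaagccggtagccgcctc
HSPA8: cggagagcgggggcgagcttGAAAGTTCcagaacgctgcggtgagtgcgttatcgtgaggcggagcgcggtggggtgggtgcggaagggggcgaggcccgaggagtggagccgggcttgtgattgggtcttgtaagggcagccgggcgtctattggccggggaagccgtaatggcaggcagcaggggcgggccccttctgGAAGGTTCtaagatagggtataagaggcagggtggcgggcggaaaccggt

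Of 17 ER chaperones and degradation genes 3 rose and 11 fell, with a median of -0.51 (spike-in 0.22, with 8 higher and 2 lower). SDF2L1, a partner of the ER Hsp70, fell by 1.22 (SE 0.10) and MANF, a secreted factor of the unfolded protein response, by 1.05 (SE 0.07), the second not called on the spike-in scale (-0.33 ± 0.16). Of 12 factors and feedback genes of the ATF4 response 0 rose and 10 fell, with a median of -0.86 (spike-in -0.13, with 3 higher and 3 lower). DDIT3, the factor CHOP, had 6.44 and 5.40 CPM at 8 h and 30.5 and 24.8 CPM at 0 h and fell by 2.22 (SE 0.16; spike-in -1.50). ATF5, a related factor, had 66.4 and 59.1 CPM at 8 h and 238 and 226 CPM at 0 h and fell by 1.89 (SE 0.08), and PPP1R15A, the GADD34 subunit that restarts translation, fell by 1.53 (SE 0.09). SLC38A2, a neutral amino acid transporter of the same list, was higher, with 242 and 235 CPM at 8 h and 129 and 141 CPM at 0 h (0.82 ± 0.08).

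Glycolytic, respiratory chain and ribosomal protein genes were mostly lower on the TMM scale, while the 18 aminoacyl-tRNA synthetases were split, with 6 higher and 7 lower. Of 21 glycolytic enzymes 2 rose and 17 fell, with a median of -0.59 (spike-in 0.13, with 4 higher and 3 lower). Of 37 nuclear genes of respiratory complex I 1 rose and 31 fell, with a median of -0.73, and of 36 genes of complexes III to V 0 rose and 34 fell, with a median of -0.82. Of 83 cytosolic ribosomal proteins 0 rose and 80 fell, with a median of -0.85, and of 78 mitochondrial ribosomal proteins 1 rose and 64 fell, with a median of -0.54. On the spike-in scale most of these genes were not called, with 4 higher and 4 lower in complex I, 5 and 8 in complexes III to V, 1 and 19 among cytosolic and 27 and 3 among mitochondrial ribosomal proteins. These genes are short, with median lengths of 12.0 kb for complex I, 8.04 kb for complexes III to V and 5.01 kb for the cytosolic ribosomal proteins. Ribosomal proteins took 6.27% and 6.35% of counts at 8 h and 10.75% and 9.999% at 0 h.

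ALDOC, an aldolase of glycolysis, had 6.80 and 7.79 CPM at 8 h and 47.5 and 43.3 CPM at 0 h and fell by 2.64 (SE 0.11; spike-in -1.91). The triose phosphate isomerase TPI1 fell by 1.00 (SE 0.07) and the fructose transporter SLC2A5 by 1.63 (SE 0.08). In the respiratory chain UQCRQ, of complex III, had 21.8 and 22.8 CPM at 8 h and 63.3 and 59.0 CPM at 0 h and fell by 1.46 (SE 0.10), and ATP5F1E, of the ATP synthase, fell by 1.25 (SE 0.07). NDUFS1, the largest core subunit of complex I, was the 1 of its list that rose, with 196 and 197 CPM at 8 h and 134 and 129.96 CPM at 0 h (0.58 ± 0.06). RPLP2, a stalk protein of the ribosome, had 629 and 671 CPM at 8 h and 1999.9 and 1779 CPM at 0 h and fell by 1.54 (SE 0.06; spike-in -0.81). In none of the genes given by library here did the 8 h and 0 h libraries overlap. They were named from their calls or values, so this follows from the choice and is no further evidence.

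The mRNAs made within mitochondria took 4.892% ± 0.151 of counts at 8 h and 5.864% ± 0.0113 at 0 h (SD, n = 2 each; exact two-sided permutation p = 0.333, the smallest that 2 against 2 libraries allow). Of the 13, 1 rose, 10 fell and 2 were not called, with a median of -0.40 (spike-in 0.33). MT-ND3, a complex I subunit, had 689.8 and 695 CPM at 8 h and 1678 and 1585 CPM at 0 h and fell by 1.24 (SE 0.07; spike-in -0.51).

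Antioxidant and lipid genes held some of the larger falls. Of 24 NRF2 and antioxidant genes 5 rose and 13 fell. With spike-in scaling 16 were higher and 4 lower (median 0.49), against 52.2% higher, 4.21% lower and a median of 0.70 over all genes. GPX1, a glutathione peroxidase, had 64.8 and 73.6 CPM at 8 h and 298 and 272 CPM at 0 h and fell by 2.04 (SE 0.08; spike-in -1.31). FTH1, the ferritin heavy chain, fell by 1.31 (SE 0.09). HMOX1, which breaks down haem, had 3.38 and 2.39 CPM at 8 h and 30.6 and 24.7 CPM at 0 h and fell by 3.26 (SE 0.27). Its change was also negative in the other lines (-3.36 in OCI-LY19, -5.14 in OCI-LY3 and -2.39 in SU-DHL-10), not called in OCI-LY3, and the difference of U-2932 from their mean was not called (0.37 ± 0.48). Of 29 cholesterol and fatty acid enzymes and uptake genes 6 rose and 15 fell, with a median of -0.24 (spike-in 0.49, with 17 higher and 3 lower), among them FADS2, a fatty acid desaturase (-1.47 ± 0.10), and LSS, the lanosterol synthase (-0.95 ± 0.08, not called on the spike-in scale), whereas HMGCS1, at the entry to the pathway, rose (0.85 ± 0.09). Of 30 promoters found for this list 1 (3.33%) held the sterol regulatory element TCACNCCAC or its reverse GTGGNGTGA, against 0.875% of all promoters.

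Most members of the mitosis, DNA repair, nuclear pore and chromatin lists were called higher, and the repair, nuclear pore and chromatin lists hold long genes. The whole cell cycle list of 91 genes had a median length of 22.8 kb. Its median change was 0.285, and 0.252 with the length trend removed. Neither the length nor the change with the trend removed was taken for the G2 and mitosis genes alone. Of 36 genes of G2 and mitosis 27 rose, 1 fell and 8 were not called, with a median of 0.71 (spike-in 1.43, with 35 higher). S phase genes were split, with 13 higher and 12 lower of 36 (spike-in 32 higher and 0 lower). ASPM, a spindle pole protein, had 325 and 316 CPM at 8 h and 58.9 and 73.7 CPM at 0 h and rose by 2.27 ± 0.09. CENPE, the kinetochore motor, had 123 and 124 CPM at 8 h and 25.7 and 30.3 CPM at 0 h and rose by 2.14 ± 0.11, and CENPF, of the outer kinetochore, by 1.85 ± 0.08. TOP2A, the topoisomerase of mitotic chromosomes, rose by 1.21 ± 0.07.

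Of 34 DNA damage and repair genes 26 rose, 0 fell and 8 were not called, with a median of 0.69 and a median length of 74.4 kb. PRKDC, the DNA-dependent protein kinase, had 877 and 824 CPM at 8 h and 322 and 325 CPM at 0 h and rose by 1.39 ± 0.07. ATR, the replication stress kinase, rose by 1.20 ± 0.08, SMC5, of a complex with its own SUMO ligase, by 1.47 ± 0.08 and BRCA2, of homologous recombination, by 1.56 ± 0.11. Of 30 nuclear pore and transport genes 18 rose and 2 fell, with a median of 0.57 and a median length of 52.9 kb, among them the exportin XPO1 (1.09 ± 0.07) and TPR, of the nuclear basket (0.99 ± 0.06). On the spike-in scale all 34 repair genes and all 30 nuclear pore genes were called higher, where 52.2% of all genes were.

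Of 23 chromatin regulators mutated in lymphoma 18 rose and 3 fell, with a median of 0.72 and a median length of 87.5 kb. KMT2C, a histone H3 lysine 4 methyltransferase, had 115 and 102 CPM at 8 h and 35.1 and 45.2 CPM at 0 h and rose by 1.43 ± 0.10. SETD1B, of the same enzyme class, rose by 1.57 ± 0.09, the corepressor NCOR1 by 1.22 ± 0.08 and ARID1B, a subunit of the BAF remodeller, by 1.25 ± 0.08. Of 13 genes of the KRAB corepressor complex, which silences genes through zinc finger proteins and is a known SUMO target, 10 rose and 1 fell, with a median of 0.61. ATF7IP, which stabilises the methyltransferase SETDB1, had 287 and 283 CPM at 8 h and 82.0 and 88.8 CPM at 0 h and rose by 1.74 ± 0.07, and MORC3, a silencing ATPase of PML bodies, by 1.42 ± 0.10. Of 421 zinc finger genes named ZNF 211 rose, 47 fell and 163 were not called, with a median of 0.46 and a median length of 23.4 kb. Of 42 replication-dependent histone genes 16 rose and 0 fell, with a median of 1.24, but their mRNAs lack poly(A) tails in the main and stand low in a poly(A) library, as in H1-4 (3.33 and 5.61 CPM at 8 h, 0.884 and 0.482 CPM at 0 h), and their copies are alike.

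Death and p53 genes were mostly lower on the TMM scale. Of 10 death-promoting members of the BCL2 family 1 rose and 9 fell, with a median of -0.95 (spike-in -0.22, with 3 higher and 3 lower). PMAIP1, which encodes Noxa, had 762 and 766 CPM at 8 h and 1476 and 1728 CPM at 0 h and fell by 1.07 (SE 0.07). Its spike-in value of -0.34 was called, but not without replicate 2 at 0 h (-0.20) nor without either library at 8 h (-0.28 and -0.42). BIK fell by 1.30 (SE 0.11) and BMF by 1.18 (SE 0.09), whereas HRK was the 1 that rose (1.47 ± 0.17). All of these carry a BH3 domain that binds the protective members. Of 24 p53 targets 5 rose and 14 fell, with a median of -0.37. With spike-in scaling 12 were higher and 4 lower (median 0.36), against 52.2% higher, 4.21% lower and a median of 0.70 over all genes. CDKN1A, the cyclin-dependent kinase inhibitor p21, had 85.3 and 84.9 CPM at 8 h and 258 and 242 CPM at 0 h and fell by 1.56 (SE 0.08; spike-in -0.83), and FDXR, ferredoxin reductase, fell by 2.25 (SE 0.11).

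**Figure D4:**
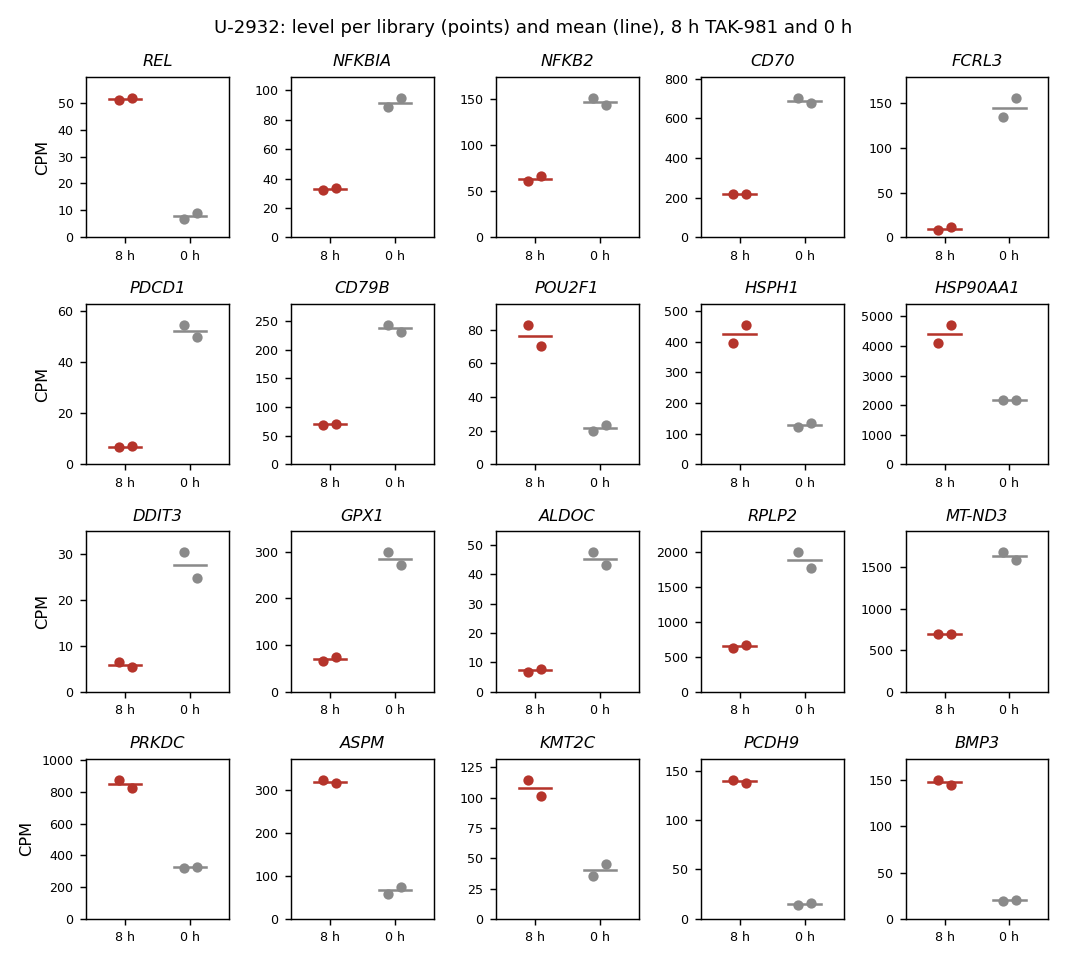
Level in CPM (vertical axes from 0, TMM scale) of 20 genes in the 2 libraries of U-2932 at 8 h of TAK-981 (red) and the 2 at 0 h (grey), with lines at the means. In each panel the groups lie apart, with REL, POU2F1, HSPH1, HSP90AA1, PRKDC, ASPM, KMT2C, PCDH9 and BMP3 higher at 8 h and the others lower. The genes shown were chosen among called genes, so the separation follows from the choice.

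The largest single changes among called genes with at least 5 CPM on average were falls. ZNF385C, a zinc finger gene, had 0.0901 and 0.261 CPM at 8 h and 21.7 and 20.4 CPM at 0 h (log2 fold change -6.84 ± 0.41, spike-in -6.10). RASGRP4, a Ras exchange factor, had 0.135 and 0.218 CPM at 8 h and 13.1 and 11.5 CPM at 0 h (-6.07 ± 0.50). Both transcripts were close to absent at 8 h. Of the genes that rose, DHRS2, a short-chain dehydrogenase, had 17.0 and 20.7 CPM at 8 h and 1.71 and 1.71 CPM at 0 h (3.46 ± 0.24). PCDH9, a protocadherin, had 141 and 137 CPM at 8 h and 13.8 and 16.4 CPM at 0 h (3.20 ± 0.11). BMP3, a ligand of the TGF-beta family, had 150.4 and 144 CPM at 8 h and 19.3 and 20.5 CPM at 0 h (2.89 ± 0.11), and NFAT5, the factor of the osmotic stress response, rose by 2.40 ± 0.13.

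More genes were called in U-2932 than in the other lines, a comparison of counts and not of single genes. The other lines had 6821 genes called in OCI-LY19 (39.4%), 4420 in OCI-LY3 (25.5%) and 2179 in SU-DHL-10 (12.6%). The SD of the log2 fold changes across genes was 1.121 in U-2932, 1.093 in OCI-LY19, 1.055 in OCI-LY3 and 0.797 in SU-DHL-10. In the test of the difference from the mean of the other 3 lines, AFF3, a nuclear factor of lymphoid cells, stood out as higher. It had a mean of 162 CPM at 8 h and 37.5 CPM at 0 h in U-2932. It changed by 2.11 in U-2932, -0.59 in OCI-LY19, -1.22 in OCI-LY3 and -2.18 in SU-DHL-10. IKZF2, the lymphoid factor Helios, changed by 1.81 in U-2932, -2.81 in OCI-LY19, -1.78 in OCI-LY3 and 1.13 in SU-DHL-10. PCDH9 changed by 3.20 in U-2932, 0.26 in OCI-LY19, -0.60 in OCI-LY3 and 0.82 in SU-DHL-10. The 3 genes were called higher in U-2932, and none of them was called higher in OCI-LY3 or OCI-LY19.

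In the other direction BATF, an AP-1 factor of activated lymphocytes, changed by -3.46 in U-2932, 0.76 in OCI-LY19, 0.74 in OCI-LY3 and -0.33 in SU-DHL-10. CCL4 changed by -2.63 in U-2932, 3.63 in OCI-LY19, 3.05 in OCI-LY3 and -0.42 in SU-DHL-10, and so fell in U-2932 and rose in both OCI lines. SLC12A7, a potassium chloride cotransporter, had means of 146 CPM at 8 h and 110 CPM at 0 h in U-2932, a change of 0.41 that was lost with the length trend removed (-0.016). In OCI-LY19 it had 500 CPM at 8 h and 4.08 CPM at 0 h, and in OCI-LY3 225 CPM at 8 h and 0.0876 CPM at 0 h. The change of all 3 genes in U-2932 was below the mean change of the other lines by the test of the difference.

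**Figure D5:**
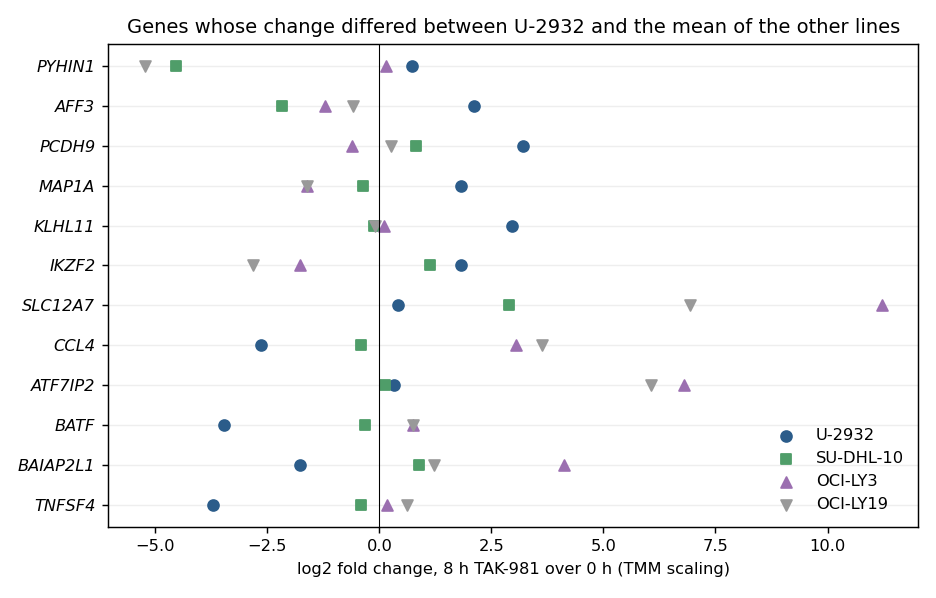
Log2 fold change of 8 h TAK-981 over 0 h (horizontal axis, TMM scale) in each of the 4 lines for 12 genes that were called in the test of the difference between U-2932 and the mean of the other lines. U-2932 (circles) lies right of the mean of the others in the upper 6 genes and left of it in the lower 6.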

How the data were processed

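The authors deposited 1 table of raw counts, which holds genes and 92 spike-in RNAs. Per the labels' protocols, total RNA was taken with a kit, enriched for poly(A), reverse transcribed and cleared of PCR duplicates. Per the submitters' processing notes, the tools were HOMER, MACS2, Bowtie2, bedtools, Trimmomatic and DESeq2, and hg19 and GRCh38 are both named as builds, with no role for any. No source used here gives the aligner, counter, strand setting or annotation of the RNA counts. Of the series' samples, 8 are ATAC-seq and not analysed here.

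Of 58676 gene IDs 58207 had a symbol. Genes were kept by filterByExpr on 8 groups, and edgeR 4.0.16 (R 4.3.3, limma 3.58.1) fitted 1 mean per group to the 16 libraries, whose shared spread assumes that U-2932 varies like the other lines (median biological coefficient of variation 8.54%). The contrasts were 8 h minus 0 h in U-2932, under TMM and under spike-in totals, and U-2932 minus the mean of the other 3 lines, with Benjamini-Hochberg adjustment over all 17327 genes. SE is the size of the log2 change over the root of its F statistic. CPM use TMM library sizes. Lists are described by counts and medians with no test. The TMM fit of the U-2932 contrast was tested on simulated counts with changes in a small share of genes. The other steps were not tested on simulated data.

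The members and the lists were chosen with earlier results of these data known. Genes are named by a written rule: the 15 highest and 15 lowest changes, the 10 highest and 10 lowest differences and the 10 lowest on the spike-in scale, each among called genes at 5 CPM or more, at most 4 per list by smallest p, a fixed set, and the 5 with the most counts at 0 h. Other list members, named to complete a subgroup (SENP7, RELA, RELB, IKBKB, CHUK, LTB, CD47, IL2RG, EGR1, ISG15, HSPA8, HSPE1, NDUFS1, HMGCS1, TOP2A, BRCA2 and HRK), were chosen after their values were seen, and some genes the rule names are not reported here. Gene lengths are genomic lengths of RefSeq genes matched by symbol, which 88.8% of tested genes had. Alternatives were DESeq2 1.42.0, RLE scaling, no TMM, TMM factors on the spike-in RNAs, other filters, U-2932 libraries alone, each library left out, a test against a 1.5-fold change, each other line as the comparison, a replicate block and a gene-length trend. Replicate numbers did not pair the samples.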

Additional observations from a re-analysis of the deposited data

Results flagged for a closer look

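A difference between lines under the same treatment was found for 18 genes named by rule, from the test of the change in U-2932 minus the mean change of the other 3 lines (edgeR, log2, with SE and adjusted p over all tested genes). Of the 9 that were higher in U-2932, 5 rose there and had counts in every group. AFF3 differed by 3.45 ± 0.20 (adjusted p = 1.66e-15), PCDH9 by 3.04 ± 0.13 (adjusted p = 7.66e-19), IKZF2 by 2.97 ± 0.17 (adjusted p = 5.47e-16) and KLHL11, a Kelch family protein, by 2.99 ± 0.24 (adjusted p = 3.75e-12). MAP1A, a microtubule-associated protein, differed by 3.02 ± 0.23 (adjusted p = 8.88e-13), with a mean of 203 CPM at 8 h and 57.5 CPM at 0 h in U-2932 and at most 5.61 CPM in the other lines.

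The other 4 rest on genes that were near 0 in at least 1 other line, so their size depends on the prior count. PYHIN1, of an interferon-inducible family, differed by 3.95 ± 0.90 (adjusted p = 0.000479), with 21.4 CPM at 8 h and 12.8 CPM at 0 h in U-2932 and at most 0.224 CPM elsewhere. EHD3, an endocytic protein, differed by 3.49 ± 0.79 (adjusted p = 0.000429), although its own change in U-2932 was -0.63. CHML, a Rab escort protein, differed by 3.45 ± 1.14 (adjusted p = 0.0135), and SNTB1, a syntrophin, by 2.95 ± 0.96 (adjusted p = 0.0118), both with at most 0.0954 CPM in the OCI lines.

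Of the 9 that were lower in U-2932, SLC12A7 differed by -6.61 ± 0.16 (adjusted p = 1.43e-25). It was near absent in OCI-LY3 at 0 h, where it changed by 11.2, so that its size depends on the prior count. CCL3L3, a chemokine with near-identical copies, differed by -5.50 ± 0.23 (adjusted p = 6.11e-19), CCL4 by -4.72 ± 0.65 (adjusted p = 2.2e-07) and BATF by -3.86 ± 0.30 (adjusted p = 1e-12). TNFSF4, the OX40 ligand, differed by -3.83 ± 0.66 (adjusted p = 1.05e-05), with 0.772 CPM at 8 h and 10.2 CPM at 0 h in U-2932. ZNF385C differed by -8.13 ± 1.28 (adjusted p = 2.69e-06), with at most 0.0743 CPM in the other lines, so that its size also depends on the prior count. ADAP1, a regulator of Arf GTPases, differed by -4.46 (adjusted p = 0.00169), BAIAP2L1, an actin regulator, by -3.85 ± 0.68 (adjusted p = 1.62e-05) and ATF7IP2 by -4.004 ± 0.63 (adjusted p = 3.26e-06). ATF7IP2 itself changed by 0.32 in U-2932 and was at 0 counts in both OCI lines at 0 h, so that the prior count sets its size.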

How the results depend on the processing

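The 3 counts of called genes stayed within 1.5 times their main value under every setting run except the test against a 1.5-fold change, which called 3259 genes under TMM (1760 higher, 1499 lower) and 6050 under spike-in scaling (5711 higher, 339 lower), a stricter question by construction. Leaving out each U-2932 library in turn gave 7345 to 8167 genes under TMM, 7885 to 8890 under spike-in scaling (425 to 597 of them lower, against 729) and 6410 to 7102 for the difference from the other lines, where a lone library is assumed to vary like the other groups. Without TMM factors the difference had 5025 higher and 2531 lower, so that 66.5% of its calls were higher, against 52.7% with them, and with spike-in scaling 7624 genes (44%), 6900 higher and 724 lower. Replicate numbers did not pair the samples, with a correlation of deviations of -0.01 in U-2932, and the fit with a replicate block called 8636, 9467 and 7227 genes. The block ended 1 call among the genes named, the spike-in value of PMAIP1 (-0.34). With the gene-length trend removed NFKB1 turned to -0.18 and SLC12A7 to -0.016. On the spike-in scale values near 0 changed sign in CD37 (0.010 with TMM factors on the spike-in RNAs, and -0.106 to 0.079 without 1 library each), and, without 1 library each, CD79A (-0.117 to 0.018) and RELB (-0.162 to 0.046). Against SU-DHL-10 alone the difference turned to -0.085 in EHD3 and 0.20 in ATF7IP2, and 5 more of the 18 differences were no longer called (CCL4 -2.22, ADAP1 -1.30, BAIAP2L1 -2.65, TNFSF4 -3.29 and SNTB1 0.39). Against OCI-LY3 alone PYHIN1 (0.59) and SNTB1 (5.28) were not called, nor against OCI-LY19 alone CHML (4.16) and SNTB1 (3.20). The cause of these changes was not tested. The mitochondrial share differed by -0.972 percentage points, and by -1.079 to -0.865 without 1 library. With 2 libraries a group, small changes of low genes were not detectable at this depth.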

Other observations

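Several groups not described above moved in part. To set beside the counts in this section, 25.9% of all tested genes rose and 25% fell (spike-in 52.2% and 4.21%). Of 20 FOXO target and quiescence genes 9 rose and 6 fell, with a median of 0.28 (spike-in 15 higher and 2 lower). SESN3, a stress-induced regulator of mTORC1, had 41.7 and 40.0 CPM at 8 h and 10.3 and 16.4 CPM at 0 h and rose by 1.603 ± 0.14, whereas TSC22D3, a leucine zipper protein induced by glucocorticoids, had 1.71 and 1.91 CPM at 8 h and 14.2 and 13.3 CPM at 0 h and fell by 2.92 on the log2 scale (SE 0.20). Of 27 lysosome and autophagy genes 5 rose and 16 fell (spike-in 13 higher and 0 lower), with SQSTM1, the autophagy receptor p62, lower by -1.02 ± 0.07 (spike-in -0.30 ± 0.15, not called). Among 26 genes of the TCA cycle and pyruvate entry 5 rose and 10 fell (spike-in 19 higher and 0 lower, median 0.58), with IDH2, the mitochondrial isocitrate dehydrogenase, lower by -0.92 ± 0.09 (not called on the spike-in scale). PPARGC1B, a coactivator of mitochondrial biogenesis, had 42.4 and 36.6 CPM at 8 h and 14.4 and 18.6 CPM at 0 h and rose by 1.25 ± 0.10, and in the same list of 37 genes 11 rose and 17 fell (spike-in 20 higher and 1 lower).

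In the MYC and MAX network MYC itself fell by 0.44 on the log2 scale (SE 0.07), with 565 and 603 CPM at 8 h and 779 and 806 CPM at 0 h, and was not called on the spike-in scale (0.29 ± 0.15) nor with the length trend removed (-0.15). MGA, a MAX partner that opposes MYC, had 103 and 89.7 CPM at 8 h and 30.6 and 30.2 CPM at 0 h and rose by 1.66 ± 0.08. Of 31 splicing factors 11 rose and 9 fell and of 31 proteasome genes 5 rose and 15 fell, with medians of 0.01 and -0.21, whereas with spike-in scaling 28 splicing factors and 18 proteasome genes were higher and 0 of either were lower. Of 7 PML body genes 2 rose and 1 fell (spike-in 7 higher), with ATRX, a chromatin remodeller found there, higher by 1.48 ± 0.09. Of 27 snoRNA host genes 1 rose and 18 fell, with a median of -0.54 (spike-in 0.18, with 9 higher and 2 lower). These genes are short (median 4.85 kb), and with the length trend removed the median was -0.22. Of the 27, 14 lay below the median of the protein-coding genes in their length group.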
